A study of Homo sapiens with 6 samples.

Results

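The 50 mitosis and spindle genes described here encode the machinery that carries a cell through mitosis. They were taken as the rows of the deposited table whose symbol equals a name on a list. That list was chosen with earlier results of these data known. All 50 of 50 names were found among 23858 genes. They were compared between NB4 cells kept as controls and NB4 cells exposed to arsenic trioxide for 6 h, with 3 libraries in each group. NB4 is an established human line from acute promyelocytic leukaemia and expresses the PML-RARA fusion. Arsenic trioxide is given to patients with this disease. Both groups are the same single cell line, grown in the same serum-containing medium, so all cells of both groups carry the fusion. The sources used here do not give the dose or what the controls received. The title of the series ties the comparison to rapid loss of the fusion protein. Whether replicates were separate cultures is also not given, so each p-value reflects just the spread among these libraries, which may be technical.

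Entry into mitosis is driven by the kinase CDK1 bound to cyclin A or cyclin B, which the CDC25 phosphatases switch on and the kinase WEE1 holds off. The spindle checkpoint delays anaphase until every kinetochore is held by microtubules. CDC20 then activates the anaphase-promoting complex, securin is degraded, and the protease separase cuts the cohesin that joins sister chromatids. Genes of this programme are known to peak together late in the cell cycle under the DREAM, B-MYB and FOXM1 complexes. These complexes act on a promoter element called the cell cycle genes homology region (CHR). The CCAAT box, a separate promoter element, was also counted here. Because whole cultures were sequenced, fewer cells in late cell cycle and less RNA in each such cell cannot be told apart here.

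Total RNA depleted of ribosomal RNA was sequenced, and library totals inferred from the deposited values came to 19361333 to 22609019 reads. Expression is given in RPKM (counted reads scaled to exon length and library total), so levels of different genes can be set side by side only roughly. For 47 members this length was that of all annotated exons merged, so ranks between genes depend on the annotation. The response to arsenic was present in all 3 treated libraries, where HMOX1 was at 203 to 328 RPKM against 0.662 to 1.24 RPKM in the controls. Libraries of a group correlated at r = 0.965 to 0.973 across genes and libraries of different groups at 0.919 to 0.935. Control replicate 1 and arsenic trioxide replicate 3 stood apart from the other 4 libraries on the second principal component (21.3 and 23.0 against -14.8 to -6.85), so counts are also given without them. The promyelocyte marker list, of which 7 of 8 genes are in the table, summed to 1040 to 1440 RPKM in the controls and 692 to 1040 RPKM after treatment. Of 21 markers of T cells, B cells, erythroid cells and fibroblasts, 6 are in the table. The 2 T cell markers summed to 8.3 to 13.1 RPKM in the controls and 6.47 to 7.78 RPKM in the treated libraries, the 3 B cell markers to 5.85 to 5.98 and 7.17 to 7.87 RPKM, and the 1 erythroid marker to at most 0.387 RPKM. The part of these marker levels in the changes below was not tested.

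Many of the members share the same promoter elements. RefSeq promoters (GRCh38.p14, 250 bases before to 50 bases after each start) were matched by symbol for 42 of the 50 genes, 53 starts in all. A CHR match (TTTGAA or TTCGAA, on either strand) lay in 34 of the 53 (64.2%), against 5742 of 35116 RefSeq promoters of the same length (16.4%). A CCAAT box (CCAAT, on either strand) lay in 38 of the 53 (71.7%), against 34.6% of all promoters, and both motifs lay in 27 (50.9%), against 6.38%. Within the 60 bases just before the start, a CHR match was held by 34.0% of member promoters and 2.88% of all promoters. A match is only a run of letters and no binding was measured. The sequences below run 5′ to 3′ over the 120 bases before the start on the gene's own strand, with CHR and CCAAT matches of either strand in capitals. The 6 genes were chosen after their responses were seen, so they illustrate the elements and are no evidence of how elements and responses relate. In these windows 0 to 26 of the 120 bases lie in a GENCODE 29 exon, the most in CDC20 (26) and ASPM (25). CDC20 (chr1:43358861-43358980, plus strand), ESPL1 (chr12:53268179-53268298, plus) and NCAPH (chr2:96335646-96335765, plus) fell, while ASPM (chr1:197146670-197146789, minus), NEK2 (chr1:211675622-211675741, minus) and KIF14 (chr1:200620752-200620871, minus) rose. All 6 windows hold a CCAAT box, which 34.6% of all promoters of the larger window hold. Those of CDC20, ESPL1 and ASPM also hold a CHR match. KIF14 has a CHR match at position 2 after the start, just past the printed bases, and is counted with a match below.
CDC20: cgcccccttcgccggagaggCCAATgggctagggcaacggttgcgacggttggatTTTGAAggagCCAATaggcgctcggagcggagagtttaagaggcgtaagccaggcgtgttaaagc
ESPL1: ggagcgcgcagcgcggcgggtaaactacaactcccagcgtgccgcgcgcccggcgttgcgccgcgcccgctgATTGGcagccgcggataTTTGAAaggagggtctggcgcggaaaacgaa
NCAPH: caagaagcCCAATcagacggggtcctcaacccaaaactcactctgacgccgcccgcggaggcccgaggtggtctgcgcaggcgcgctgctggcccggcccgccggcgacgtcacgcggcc
ASPM: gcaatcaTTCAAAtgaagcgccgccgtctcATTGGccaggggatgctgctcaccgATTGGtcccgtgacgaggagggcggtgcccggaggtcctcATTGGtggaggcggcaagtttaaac
NEK2: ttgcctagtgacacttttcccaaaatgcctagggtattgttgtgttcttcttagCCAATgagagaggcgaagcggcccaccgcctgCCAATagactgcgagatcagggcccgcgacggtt
KIF14: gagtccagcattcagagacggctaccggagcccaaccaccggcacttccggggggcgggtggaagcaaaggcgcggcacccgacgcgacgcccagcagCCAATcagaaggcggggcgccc

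By response, a CHR match was found for 4 of the 5 genes that rose and are in the promoter table, 5 of the 9 that fell and 23 of the 28 that were not called. A CCAAT box was found for 5 of 5, 9 of 9 and 19 of 28. These are counts of genes with a match at any of their starts. Counted in this way, 19.5% of 27305 genes hold a CHR match and 39.7% a CCAAT box. The promoters of AURKA, BIRC5, BUB3, FOXM1, TPX2, TTK, UBE2C and WEE1 were not analysed here.

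**Figure D1:**
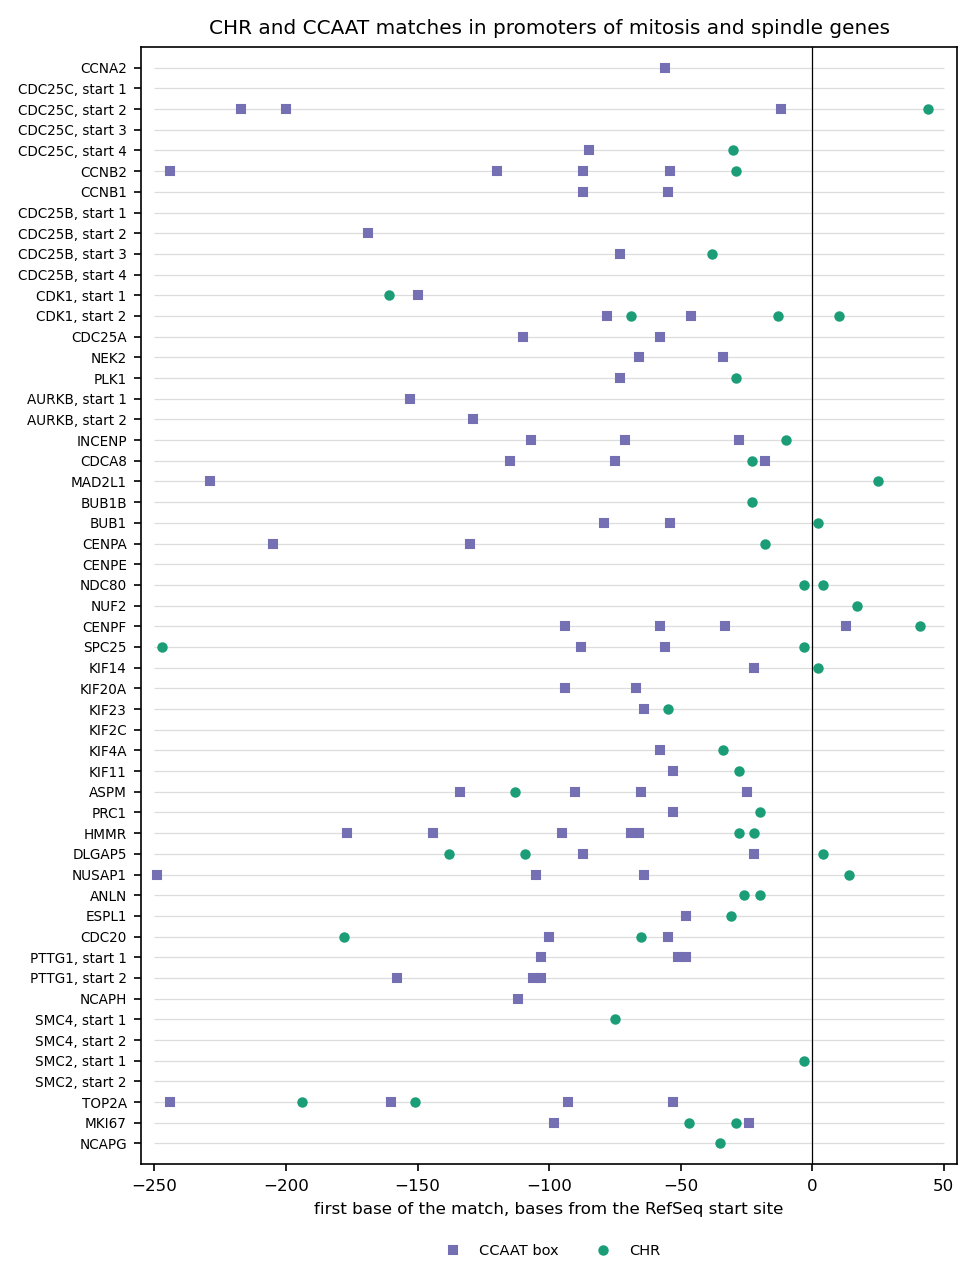
Positions of CHR (circles) and CCAAT box (squares) matches in 53 promoters of 42 mitosis and spindle genes. The x axis is the first base of each match in bases from the RefSeq start, and each line is 1 promoter. CHR matches were found in 34 promoters and CCAAT boxes in 38.

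All 50 genes were well expressed and passed the filter of a mean of 1 RPKM. Their mean over the 6 libraries ran from 7.8 RPKM for CDC25C to 100.2 RPKM for TPX2, with a median of 37.3 RPKM against 5.72 RPKM for all 16803 genes tested, and 59.4% of tested genes lay below CDC25C. Each value rests on 270 to 28237 reads. Summed over the 50 genes, RPKM was 2018, 2004 and 2045 in control replicates 1, 2 and 3 and 1963, 1991 and 1914 in the treated libraries, with a treated mean of 1956 ± 39.1 RPKM against 2022 ± 20.7 RPKM (SD, n = 3 per group), a difference of -3.28%. In the deposited scaling every treated sum lay below every control sum, but with median-ratio, upper quartile or trimmed mean factors the groups overlapped, and the difference was -4.23%, -0.256% and -4.98%. As a share of all reads, which is not scaled to exon length, the groups overlapped, at 0.981% to 1.02% in the controls and 0.971% to 1.01% after treatment.

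**Figure D2:**
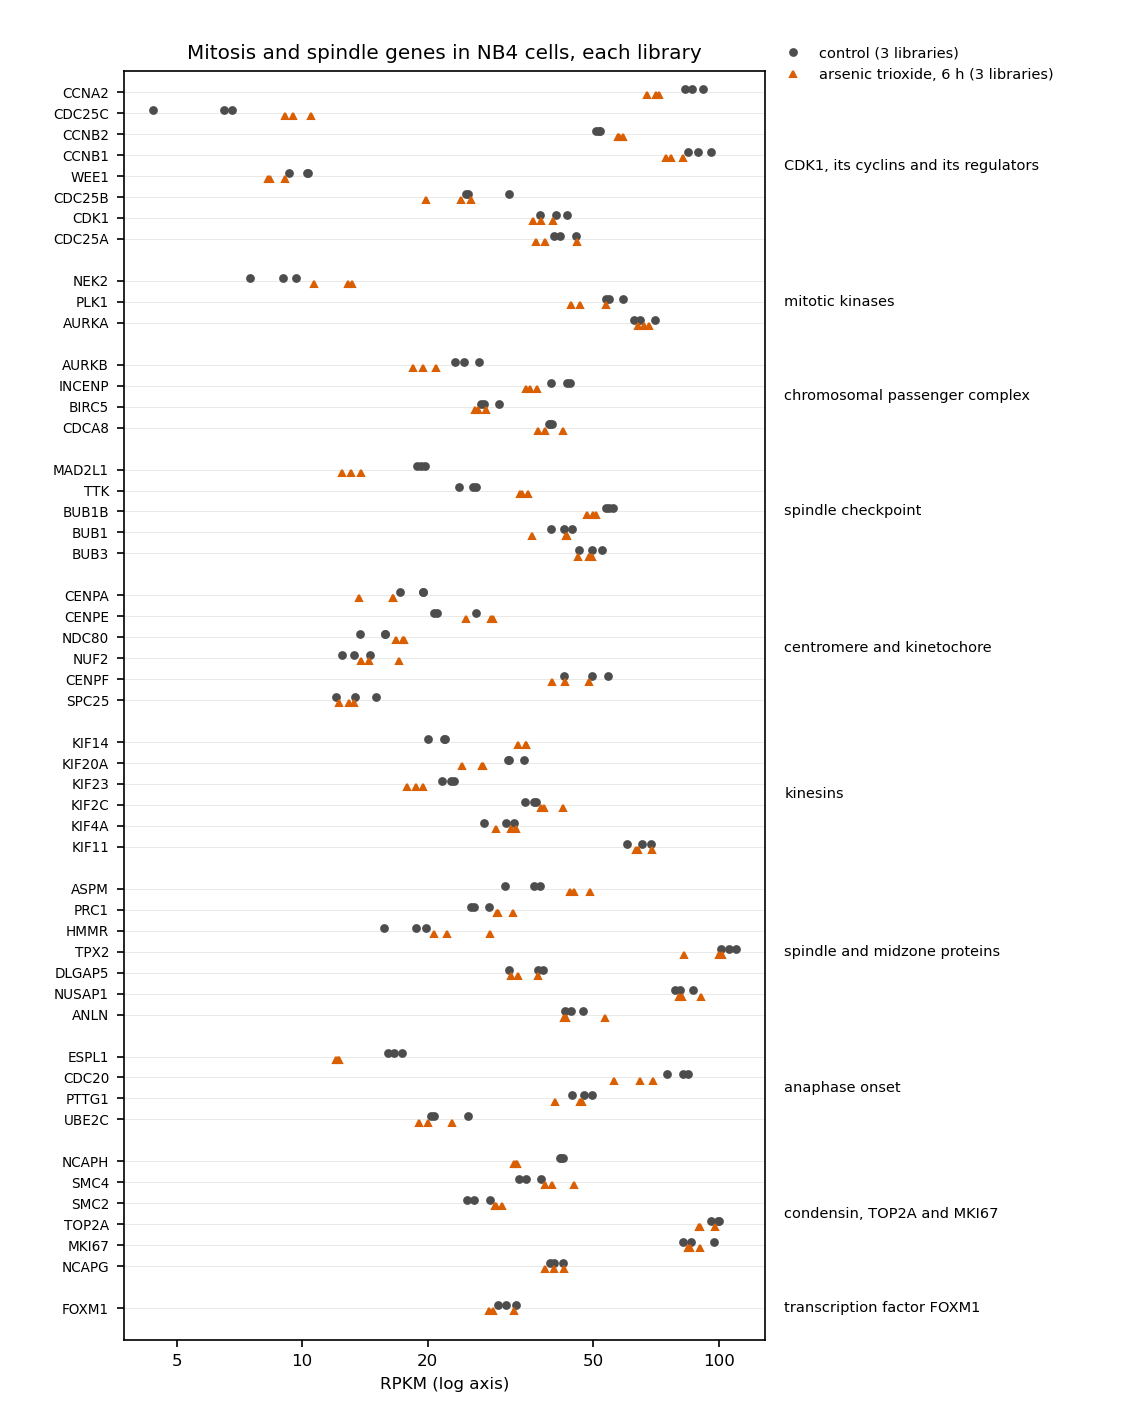
RPKM (log axis) of the 50 mitosis and spindle genes in each library, grouped by role, with circles for the 3 controls and triangles for the 3 arsenic trioxide libraries. The groups are apart for 26 of 50 genes, in both directions, and the levels span 4.39 to 109.8 RPKM.

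After arsenic trioxide, 15 of the 50 genes changed, 6 upward and 9 downward. KIF14, CDC25C, NEK2, TTK, ASPM and CCNB2 rose, and MAD2L1, ESPL1, NCAPH, CDC20, AURKB, CCNA2, KIF20A, KIF23 and INCENP fell. Calls are a Benjamini-Hochberg adjusted p under 0.05 over all 16803 genes in limma-trend, on log2 of RPKM + 1. The share called, 30.0%, lies near the 25.4% of all tested genes. The share higher was 12.0%, equal to the 12.0% of all genes, and the share lower was 18.0% beside 13.4%. All changes were small. The log2 fold change ran from -0.52 (MAD2L1) to 0.65 (CDC25C), and 0 of 50 reached a 2-fold change, which 3.59% of all tested genes did with a call. Its median was -0.06 against -0.0033 for all genes tested, and its median size was 0.16 against 0.25. The members' median moved with the setting, to -0.02 with upper quartile factors (0.03 for all genes), -0.09 with limma-voom (-0.03) and -0.04 without control replicate 3 or arsenic trioxide replicate 2. The 95% interval lay within a 2-fold change for 49 genes and within a 1.5-fold change for 44. The 3 treated libraries did not overlap the 3 controls in 26 of 50 genes (52.0%, with 12 above and 14 below), against 44.6% of all genes. The authors' deposited table has an adjusted p under 0.05 for 15 of the 50 genes (25.3% of its 23393 genes with a value), and 14 of them, all of the same sign, are among the 15 called here. Leaving out arsenic trioxide replicate 1 gave 3 higher genes, and leaving out replicate 2 gave 2. Lower genes numbered 5 when control replicate 1 or 2 was left out. Scaling by upper quartile factors turned the split to 8 higher and 7 lower, and leaving out control replicate 1 together with arsenic trioxide replicate 3 gave 5 higher and 6 lower.

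**Figure D3:**
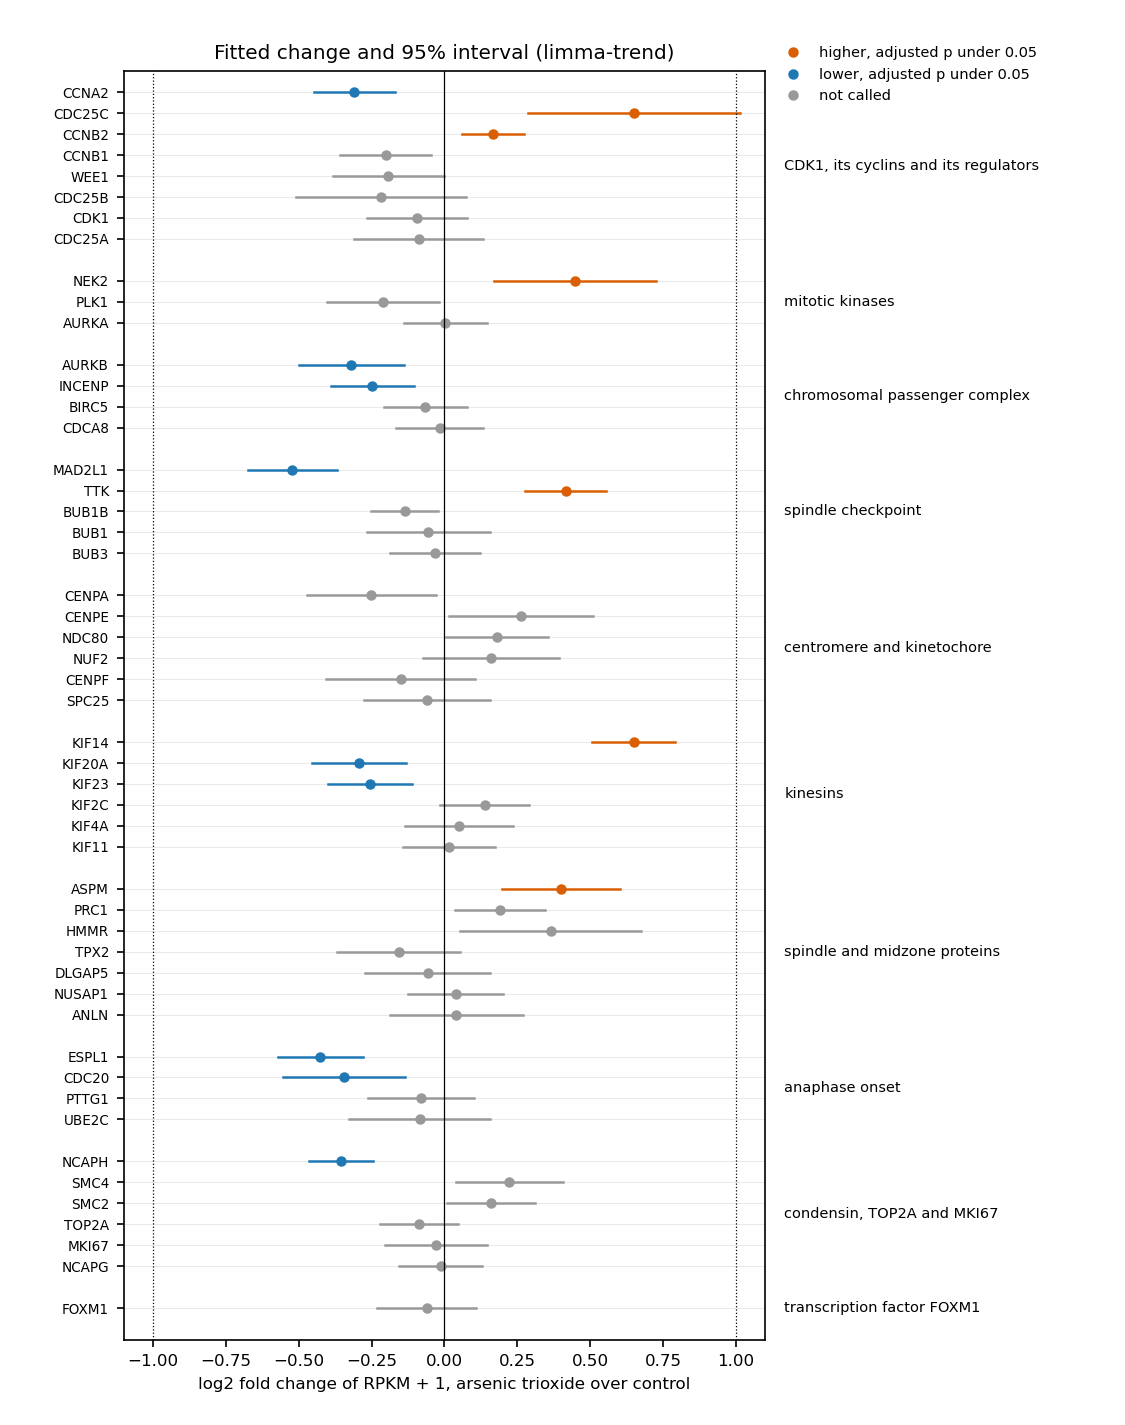
Log2 fold change of RPKM + 1, arsenic trioxide over control, with 95% intervals from limma-trend for the 50 genes by role. Dotted lines mark a 2-fold change. The 6 genes that rose and the 9 that fell are coloured, and 49 of 50 intervals lie between the dotted lines.

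Among CDK1, its cyclins and its regulators, 2 of 8 genes rose and 1 fell. Values of the 3 libraries of a group are given in replicate order from here on. CCNA2, cyclin A2, which serves both S phase and mitotic entry (chr4:121816444-121823933, GRCh38), was at 91.8, 82.8 and 86.2 RPKM in the controls and 70.5, 72.0 and 67.3 RPKM in the treated libraries. It fell by 19.5%, from 86.9 ± 4.55 RPKM to 69.9 ± 2.38 RPKM (SD, n = 3 per group; limma-trend log2 fold change -0.31 ± 0.059, SE, adjusted p = 0.0106), and no treated library reached the lowest control. CCNB1 and CCNB2 encode the B-type cyclins that form the mitotic kinase with CDK1. CCNB2 (chr15:59105078-59125045) was at 51.7, 51.8 and 50.8 RPKM in the controls and 57.3, 58.8 and 57.5 RPKM in the treated libraries. It rose by 12.5% in the mean, with a narrow spread in both groups (limma-trend log2 fold change 0.17 ± 0.045, SE, adjusted p = 0.0357). Leaving out any 1 of the 6 libraries ended the CCNB2 call (adjusted p = 0.0656 to 0.113), as did median-ratio factors, limma-voom or dropping the trend (adjusted p = 0.0833 to 0.16). CCNB1 leaned the other way, at 95.7, 89.2 and 84.3 RPKM in the controls and 82.1, 76.9 and 74.6 RPKM in the treated libraries. Its groups did not overlap, but it was not called (limma-trend log2 fold change -0.20, 95% interval -0.36 to -0.044, adjusted p = 0.0654), except in limma-voom (0.0485).

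CDC25C, the phosphatase that activates CDK1 at mitotic entry (chr5:138285265-138338355), was the lowest expressed of the 50, at 4.39, 6.80 and 6.503 RPKM in the controls and 10.5, 9.09 and 9.53 RPKM in the treated libraries. It rose from 5.90 ± 1.32 RPKM to 9.70 ± 0.717 RPKM (SD, n = 3 per group), 1.65-fold (limma-trend log2 fold change 0.65 ± 0.15, SE, adjusted p = 0.0224). Control replicate 1 was the lowest library by a wide margin, and all treated libraries were above all controls. Leaving out any 1 treated library ended the call (adjusted p = 0.0503 to 0.0728). CDK1 itself was at 43.2, 40.7 and 37.3 RPKM in the controls and 35.8, 40.0 and 37.4 RPKM in the treated libraries, and the groups overlapped (limma-trend log2 fold change -0.10, 95% interval -0.27 to 0.077, adjusted p = 0.375). With 1 library left out its log2 fold change ran from -0.15 (control replicate 3) to -0.05 (control replicate 1). CDC25A, CDC25B and the CDK1-inhibiting kinase WEE1 were not called, with log2 fold changes of -0.09, -0.22 and -0.19, although limma-voom called WEE1 lower. WEE1 was below all controls in every treated library, and CDC25A and CDC25B overlapped between groups.

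Of the mitotic kinases, NEK2, which acts in separating the centrosomes (chr1:211658657-211675630), was at 7.52, 9.65 and 8.97 RPKM in the controls and 13.2, 12.9 and 10.7 RPKM in the treated libraries. It rose from 8.71 ± 1.09 RPKM to 12.2 ± 1.37 RPKM (SD, n = 3 per group; limma-trend log2 fold change 0.45 ± 0.12, SE, adjusted p = 0.032), with all treated libraries above all controls. It was no longer called when control replicate 1 or 3, or treated replicate 1 or 2, was left out (adjusted p = 0.0714 to 0.0969). PLK1, which serves centrosome maturation, mitotic entry and cytokinesis, was at 58.9, 54.4 and 53.6 RPKM in the controls and 53.5, 46.3 and 44.3 RPKM in the treated libraries. Its highest treated library lay just below its lowest control, and it was not called (limma-trend log2 fold change -0.21, 95% interval -0.40 to -0.017, adjusted p = 0.103), except without arsenic trioxide replicate 1 (0.0382). AURKA, the centrosome and spindle pole kinase, was at 70.4, 62.7 and 64.6 RPKM in the controls and 67.9, 66.0 and 64.0 RPKM in the treated libraries. The groups overlapped closely (limma-trend log2 fold change 0.0036, 95% interval -0.14 to 0.15, adjusted p = 0.972).

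The chromosomal passenger complex corrects faulty kinetochore attachments and later works at the midzone. Its kinase AURKB and its scaffold INCENP fell, while its subunits BIRC5 (survivin) and CDCA8 (borealin) were not called. AURKB (chr17:8204733-8210600) was at 26.6, 24.5 and 23.2 RPKM in the controls and 19.6, 18.5 and 21.0 RPKM in the treated libraries and fell by 20.6% (limma-trend log2 fold change -0.32 ± 0.076, SE, adjusted p = 0.023). INCENP (chr11:62123973-62153163) was at 39.5, 44.0 and 43.2 RPKM in the controls and 36.6, 35.2 and 34.4 RPKM in the treated libraries and fell by 16.2% (limma-trend log2 fold change -0.25 ± 0.061, SE, adjusted p = 0.0258). The groups were apart for both genes. BIRC5 had a log2 fold change of -0.065. CDCA8 was at 39.1, 39.4 and 39.8 RPKM in the controls and 42.2, 36.7 and 38.1 RPKM in the treated libraries, with treated libraries on both sides of the controls (limma-trend log2 fold change -0.017, 95% interval -0.17 to 0.13, adjusted p = 0.871). AURKB was no longer called with control replicate 1 or 2, or treated replicate 1 or 2, left out (adjusted p = 0.0626 to 0.0683). INCENP was no longer called with control replicate 2 or 3, or treated replicate 2 or 3, left out (adjusted p = 0.0666 to 0.0877), nor with upper quartile factors or no trend (adjusted p = 0.0527 to 0.0705).

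The spindle checkpoint held the largest fall and 1 of the clearest rises. MAD2L1 encodes MAD2, the protein that binds CDC20 and keeps the anaphase-promoting complex off (chr4:120055608-120067074), and it was at 19.7, 19.3 and 18.8 RPKM in the controls and 12.5, 13.8 and 13.1 RPKM in the treated libraries. It fell by 31.9%, from 19.3 ± 0.414 RPKM to 13.1 ± 0.694 RPKM (SD, n = 3 per group; limma-trend log2 fold change -0.52 ± 0.065, SE, adjusted p = 0.0025). TTK encodes MPS1, the kinase that starts checkpoint signalling at kinetochores (chr6:80003887-80042527), and it was at 25.7, 23.8 and 26.1 RPKM in the controls and 33.3, 33.7 and 34.9 RPKM in the treated libraries. It rose by 34.6%, from 25.2 ± 1.26 RPKM to 34.0 ± 0.831 RPKM (SD, n = 3 per group; limma-trend log2 fold change 0.42 ± 0.059, SE, adjusted p = 0.00381). Neither gene's groups overlapped, and both calls held under all 18 other settings tried. BUB1B (BUBR1), another CDC20 inhibitor, was at 55.7, 53.7 and 54.4 RPKM in the controls and 48.2, 50.8 and 49.9 RPKM in the treated libraries. Its groups were apart by a narrow margin and it was not called (limma-trend log2 fold change -0.14, 95% interval -0.25 to -0.021, adjusted p = 0.0827). BUB1 and BUB3 overlapped between groups, with log2 fold changes of -0.05 and -0.03.

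At centromeres and kinetochores, 0 of 6 genes were called in limma-trend, and 0 in limma-voom, although 3 had an unadjusted p under 0.05 in limma-trend. CENPA, the histone H3 variant that marks the centromere, was at 17.2, 19.5 and 19.5 RPKM in the controls and 16.5, 16.5 and 13.7 RPKM in the treated libraries. Every treated library lay below every control (limma-trend log2 fold change -0.25, 95% interval -0.47 to -0.029, adjusted p = 0.0929). CENPF, a large kinetochore protein, was at 42.5, 49.7 and 54.1 RPKM in the controls and 42.7, 48.8 and 39.9 RPKM in the treated libraries, with overlapping groups (limma-trend log2 fold change -0.15, 95% interval -0.41 to 0.11, adjusted p = 0.348). The CENPF value was -0.07 without control replicate 3, -0.09 without arsenic trioxide replicate 3, -0.24 without control replicate 1 and -0.23 without arsenic trioxide replicate 2, and that of CENPA was -0.17 without arsenic trioxide replicate 3. The microtubule-binding NDC80 complex members NDC80, NUF2 and SPC25 had log2 fold changes of 0.18, 0.16 and -0.06, and the kinetochore motor CENPE had 0.26. Every treated library lay above every control for NDC80, while NUF2, SPC25 and CENPE overlapped between groups. Without control replicate 3, CENPE was called.

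Of the 6 kinesins 1 rose and 2 fell. KIF14, a midzone motor needed for cytokinesis (chr1:200551497-200620734), was at 20.03, 21.9 and 22.0 RPKM in the controls and 33.0, 34.5 and 34.4 RPKM in the treated libraries. It rose from 21.3 ± 1.11 RPKM to 34.0 ± 0.864 RPKM (SD, n = 3 per group), 1.59-fold (limma-trend log2 fold change 0.65 ± 0.06, SE, adjusted p = 0.000965). This was the smallest p of the 50, and the gap between the groups was several times the spread within them. KIF20A (MKLP2), which carries the passenger complex to the midzone (chr5:138178719-138187715), was at 34.0, 31.3 and 31.4 RPKM in the controls and 27.1, 27.0 and 24.2 RPKM in the treated libraries and fell by 19.0% (limma-trend log2 fold change -0.29 ± 0.068, SE, adjusted p = 0.0212). KIF23 (MKLP1), the motor of the centralspindlin complex (chr15:69414246-69448427), was at 22.7, 21.6 and 23.2 RPKM in the controls and 17.9, 19.5 and 18.7 RPKM in the treated libraries and fell by 16.9% (limma-trend log2 fold change -0.26 ± 0.061, SE, adjusted p = 0.024). All 3 of these motors serve the last steps of division, and they did not move together. KIF11, the motor that pushes the spindle poles apart and the highest expressed kinesin here, was at 60.3, 65.5 and 68.6 RPKM in the controls and 63.4, 69.2 and 63.9 RPKM in the treated libraries, with overlapping groups (limma-trend log2 fold change 0.016, 95% interval -0.14 to 0.17, adjusted p = 0.878). KIF2C, a microtubule depolymerase, and the chromokinesin KIF4A had log2 fold changes of 0.14 and 0.05, without a call. KIF2C was above all controls in every treated library, and KIF4A overlapped between groups. KIF20A was no longer called with any 1 control left out or without the trend (adjusted p = 0.0502 to 0.061). KIF23 was no longer called with control replicate 1 or 3, or treated replicate 1 or 3, left out or without the trend (adjusted p = 0.0523 to 0.0852).

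Of the spindle and midzone proteins, 1 of 7 changed. ASPM, a spindle pole protein (chr1:197084128-197146694), was at 30.7, 36.1 and 37.2 RPKM in the controls and 44.0, 48.9 and 45.0 RPKM in the treated libraries. It rose from 34.7 ± 3.51 RPKM to 46.0 ± 2.59 RPKM (SD, n = 3 per group; limma-trend log2 fold change 0.40 ± 0.085, SE, adjusted p = 0.0158), with no overlap. Without treated replicate 2 it was not called (adjusted p = 0.0517). TPX2, which activates AURKA on the spindle and was the highest expressed of the 50, was at 101, 106 and 109.8 RPKM in the controls and 102, 100.2 and 82.5 RPKM in the treated libraries. Its groups overlapped and arsenic trioxide replicate 3 was the lowest (limma-trend log2 fold change -0.16, 95% interval -0.37 to 0.054, adjusted p = 0.238). Without that library the TPX2 log2 fold change was -0.06. HMMR, a spindle assembly factor, and PRC1, which bundles midzone microtubules, were above all controls in every treated library but were not called, with log2 fold changes of 0.36 and 0.19. HMMR has, in the authors' deposited table, an adjusted p of 0.0193, and limma-voom called it higher as well. PRC1 was called higher with upper quartile factors. DLGAP5, NUSAP1 and ANLN overlapped between groups, with log2 fold changes of -0.06, 0.04 and 0.04.

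Of the 4 genes of anaphase onset, 2 fell. ESPL1 encodes separase, the protease that cuts cohesin (chr12:53268299-53293643), and it was at 16.1, 17.4 and 16.6 RPKM in the controls and 12.2, 12.0 and 12.3 RPKM in the treated libraries. It fell by 27.1%, from 16.7 ± 0.651 RPKM to 12.2 ± 0.119 RPKM (SD, n = 3 per group; limma-trend log2 fold change -0.43 ± 0.062, SE, adjusted p = 0.00429), and the treated libraries differed from one another by little. CDC20, the activator of the anaphase-promoting complex (chr1:43358955-43363203), was at 84.5, 82.1 and 75.1 RPKM in the controls and 69.4, 64.6 and 56.1 RPKM in the treated libraries. It fell by 21.3% (limma-trend log2 fold change -0.34 ± 0.089, SE, adjusted p = 0.0302), with arsenic trioxide replicate 3 the lowest. CDC20 was no longer called with control replicate 1 or 2, or treated replicate 2 or 3, left out (adjusted p = 0.0551 to 0.0882), nor with upper quartile factors or no trend (adjusted p = 0.0542 to 0.0613). Without both libraries that stood apart its log2 fold change was -0.23. PTTG1 (securin), the inhibitor of separase, and UBE2C, the ubiquitin-conjugating enzyme of the complex, were not called, both at -0.08. Whether separase and its inhibitor differ in their change was not tested.

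Condensin compacts mitotic chromosomes, and its subunits SMC2 and SMC4 are shared by condensin I and II while NCAPG and NCAPH belong to condensin I. NCAPH, the kleisin subunit (chr2:96335787-96373845), was at 41.5, 41.7 and 42.3 RPKM in the controls and 32.8, 32.2 and 32.6 RPKM in the treated libraries. It fell by 22.4%, from 41.9 ± 0.43 RPKM to 32.5 ± 0.322 RPKM (SD, n = 3 per group; limma-trend log2 fold change -0.36 ± 0.047, SE, adjusted p = 0.00307). NCAPG overlapped between groups (log2 fold change -0.01), and SMC2 and SMC4 were above all controls in every treated library without a call (0.16 and 0.22), though upper quartile factors gave SMC4 a call. TOP2A, the topoisomerase that untangles sister chromatids, was at 95.7, 99.8 and 99.6 RPKM in the controls and 89.7, 98.1 and 90.0 RPKM in the treated libraries. MKI67, the proliferation marker Ki-67 that coats mitotic chromosomes, was at 85.7, 82.2 and 97.5 RPKM in the controls and 84.2, 85.2 and 90.1 RPKM in the treated libraries. Both overlapped between groups (limma-trend log2 fold change -0.087, 95% interval -0.22 to 0.046, adjusted p = 0.294 for TOP2A, and limma-trend log2 fold change -0.029, 95% interval -0.20 to 0.15, adjusted p = 0.806 for MKI67). FOXM1, the transcription factor that activates many of these genes, was at 30.8, 29.6 and 32.6 RPKM in the controls and 32.2, 28.1 and 28.8 RPKM in the treated libraries, again with overlap (limma-trend log2 fold change -0.061, 95% interval -0.23 to 0.11, adjusted p = 0.568).

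Calls held under all 18 other settings for KIF14, TTK, MAD2L1, ESPL1, NCAPH and CCNA2, 6 of the 15 changed genes, and all 15 kept their sign. The libraries do not mark strand, and 16 of the 50 genes share exon bases with another listed gene. Of the changed genes these are CCNA2 (9.08% of its exon bases), CDC25C (8.78%), KIF20A (5.05%), KIF23 (3.51%) and MAD2L1 (0.765%), where reads of the shared stretch cannot be told apart. The share is highest in NCAPG (33.1%) and SMC4 (25.6%). CCNB2, CDC20 and NEK2 have annotated pseudogenes that may share their reads.

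Ratios of related genes compare 2 genes inside each library and so do not depend on scaling between libraries. They can still carry the trend with GC content that differs between libraries (described below), where the 2 genes differ in GC content. The ratios were not corrected for it. The 10 pairs examined were chosen after the values were seen, so groups that lie apart are no evidence of their own. The pairs are given with no test. TTK over MAD2L1 was 1.31, 1.23 and 1.39 in the controls and 2.67, 2.43 and 2.66 in the treated libraries, so every treated ratio lay above every control ratio. KIF14 over KIF20A was 0.589, 0.701 and 0.70 in the controls and 1.22, 1.28 and 1.42 after treatment, and the order of the 2 motors was reversed in every treated library. SMC4 over NCAPH was 0.80, 0.824 and 0.882 against 1.22, 1.40 and 1.18, with the same reversal. CCNB2 over CCNB1 was 0.54, 0.58 and 0.603 against 0.698, 0.765 and 0.771, and CCNB1 stayed the higher of the B-type cyclins. Which gene of a pair had the higher RPKM depends on the exon lengths used, so these orders add nothing to the change in ratio. NEK2 over PLK1, CDC25C over CDC25B, KIF14 over KIF23 and ASPM over TPX2 were also higher in every treated library than in any control, and AURKB over BIRC5 was lower. CDC20 over UBE2C overlapped between the groups.

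**Figure D4:**
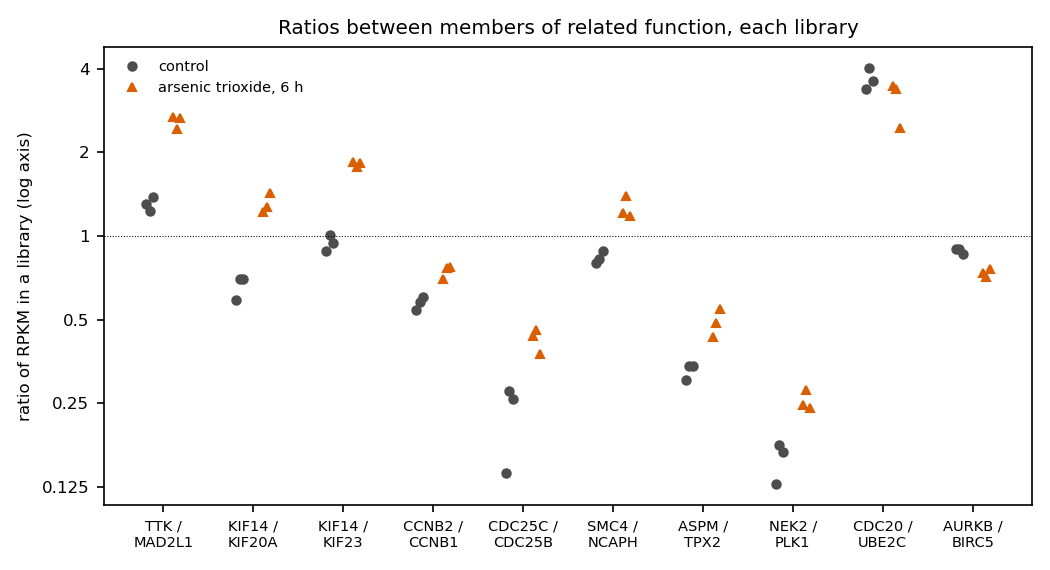
Ratio of the RPKM of 2 genes within each library (log axis) for 10 pairs of related mitosis and spindle genes, with circles for the 3 controls and triangles for the 3 arsenic trioxide libraries. The groups are apart in 9 of these 10 pairs, chosen after the values were seen, and overlap for CDC20 over UBE2C. The TTK to MAD2L1 ratio goes from 1.23 to 1.39 in the controls to 2.43 to 2.67 after treatment.

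Genes of higher GC content tended to have lower fold changes. Across the 50 genes, Pearson's r of the log2 fold change with the GC content of the longest annotated transcript was -0.43 (Spearman's rho -0.47), and with log2 exon length it was 0.14 (0.16). Across the 10159 protein-coding genes tested these were -0.15 (-0.18) and 0.09 (0.11). Genes share libraries and are not independent, so these are descriptions. The median GC content was 41.3% in the 6 genes that rose (37.1% to 47.6%), 48.4% in the 9 that fell (39.4% to 59.6%) and 42.6% in the others. INCENP, CDC20, ESPL1 and AURKB, at 59.6%, 57.9%, 57.0% and 55.6% GC, all fell, while MAD2L1 fell at 39.4%. Library by library, the correlation of a gene's deviation from its mean with GC content was 0.47, 0.37 and 0.20 in the controls and -0.08, -0.65 and -0.30 in the treated libraries, lowest in arsenic trioxide replicate 2. After a correction of each library for GC content and exon length, added after the data were seen, 6 genes were higher and 7 lower. The 6 and the 7 were all among the 15. CDC20 missed the threshold at a similar size (log2 fold change -0.29 against -0.34, limma-trend adjusted p = 0.0512), and INCENP was at -0.18 against -0.25 (adjusted p = 0.089).

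**Figure D5:**
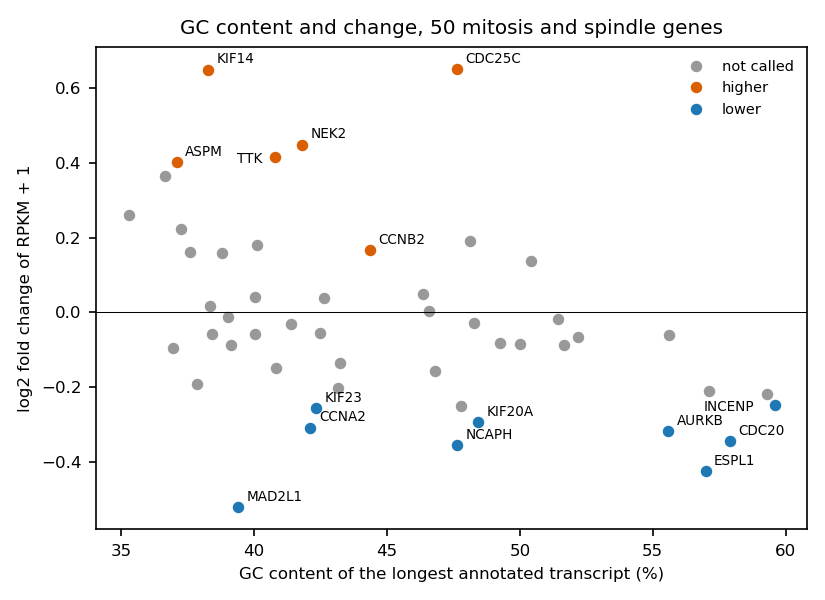
Log2 fold change of RPKM + 1 against the GC content (%) of the longest annotated transcript for the 50 genes, with genes that rose or fell coloured and named. The 6 genes that rose lie at 37.1% to 47.6% GC and the 9 that fell at 39.4% to 59.6%.

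Other genes of mitosis, in 6 lists that hold no member, moved in both directions too. Of 103 tested, 18 rose (17.5%) and 21 fell (20.4%), with a median log2 fold change of -0.001, beside 12.0% and 13.4% of all genes tested. In the anaphase-promoting complex list 6 of 17 fell, with a median of -0.21. ANAPC1, its largest subunit, fell from 25.6 ± 0.508 RPKM to 18.7 ± 0.929 RPKM (mean ± SD, limma-trend log2 fold change -0.43, adjusted p = 0.00373). FBXO5 (EMI1), which inhibits the complex before mitosis, fell from 17.5 ± 2.19 RPKM to 11.5 ± 0.686 RPKM (mean ± SD, limma-trend log2 fold change -0.56, adjusted p = 0.0091). The list therefore holds falls of a subunit and of an inhibitor. Among 33 further centromere and kinetochore genes, 7 rose and 3 fell. HJURP, the chaperone that loads CENPA, rose from 24.0 ± 0.326 RPKM to 31.7 ± 0.601 RPKM (mean ± SD, limma-trend log2 fold change 0.38, adjusted p = 0.00298), and CENPB, which binds a DNA box in centromeric repeats, fell from 33.9 ± 1.61 RPKM to 21.6 ± 3.16 RPKM (mean ± SD, limma-trend log2 fold change -0.63, adjusted p = 0.00646). Of 6 further kinesins of mitosis, 1 rose and 3 fell. KIF18A, which damps chromosome movements, rose from 13.6 ± 0.808 RPKM to 19.7 ± 1.51 RPKM (mean ± SD, limma-trend log2 fold change 0.50, adjusted p = 0.00569), and KIFC1, a minus-end motor, fell from 27.2 ± 1.43 RPKM to 20.9 ± 1.14 RPKM (mean ± SD, limma-trend log2 fold change -0.36, adjusted p = 0.00993). Of 12 cohesin genes 3 rose, among them ESCO2, the cohesin acetyltransferase, from 5.53 ± 0.163 RPKM to 7.81 ± 0.701 RPKM (mean ± SD, limma-trend log2 fold change 0.43, adjusted p = 0.0171). The 4 other condensin subunits overlapped between groups, with log2 fold changes of -0.12 to 0.04. Of 31 further genes of mitosis and cytokinesis, 7 rose and 9 fell. SPAG5 (astrin), which stabilises kinetochore fibres, rose from 21.4 ± 0.647 RPKM to 30.2 ± 1.23 RPKM (mean ± SD, limma-trend log2 fold change 0.47, adjusted p = 0.00239), and CKS2, a small CDK-binding protein, fell from 115 ± 4.17 RPKM to 85.7 ± 1.45 RPKM (mean ± SD, limma-trend log2 fold change -0.42, adjusted p = 0.00239).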

How the data were processed

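The members, role groups and lists were chosen with earlier results of these data known. Per the submitters' processing notes the tools were HISAT2 2.1.0, HTSeq and DESeq2 on hg38, with no parameters given; duplicate reads were removed, per the file headers. The deposited table holds 6 columns of per-library values, which their steps show to be RPKM. It also holds the authors' own comparison, with a mean signal, a log2 fold change, a standard error and test score, and p-values. Whole reads were recovered from the deposited RPKM with GENCODE 29 exon lengths (GRCh38) for 93.0% of genes and 47 members, and for all genes once the deposited mean signal had settled the length, within 0.01 reads. The least expressed gene has 21 reads over the 6 libraries, and rarer genes were not used. Depth was 19361333 to 22609019 reads per library. Removing duplicates can lower the values of highly expressed genes.

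For the test, log2(RPKM + 1) of the 16803 genes whose mean reached 1 RPKM entered limma 3.58.1 under R 4.3.3 in trend mode, treatment as the only term, with Benjamini-Hochberg adjustment and calls under 0.05. The 15 alternatives planned were pseudocounts of 0.1 and 5, no filter, a filter at 5 RPKM, median-ratio and upper quartile factors, limma-voom on recovered reads, no trend, the replicate number as a block and leaving out each library. Another 3 were added after the data were seen: leaving out control replicate 1 with arsenic trioxide replicate 3, and a spline correction (5 degrees of freedom each) for GC content and exon length, without and with the block. The summed RPKM of the members was also rescaled with 3 sets of factors after the data were seen. No library copies another (chi-square over its degrees of freedom, within groups, 6.16 to 16.0). Genes given with values in every library are those called, the highest expressed and the smallest p of each role group, and CCNB1, CDK1, PLK1, AURKA, CDC20, FOXM1, MKI67 and TOP2A. Of each other list, up to 3 called genes with the smallest p could be named.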

Additional observations from a re-analysis of the deposited data

How the results depend on the processing

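Leaving out 1 library gave 2 to 5 higher and 5 to 8 lower members, and 1331 to 1525 higher and 1427 to 1908 lower genes of all tested. With the replicate number as a block 3 members were higher (KIF14, TTK and ASPM) and 6 lower (of all genes 1460 and 1616), and 3 higher and 7 lower with the block and the GC content and length correction. Whether same-numbered libraries share a culture or batch is not given. Across all genes tested their deviations from the group means correlated at -0.09, 0.15 and -0.08. Across the members these values were 0.02, 0.44 and -0.22. Control replicate 1 lay closest to arsenic trioxide replicate 3 (0.22, and 0.52 across the members). With 3 libraries a group, these correlations cannot decide whether the replicates were paired. Limma without the trend gave 5 lower members. No other setting moved these counts by more than 1.5 times. Signs turned under at least 1 setting in 12 of the 50 members, all of them uncalled and at most 0.08 in size (ANLN, AURKA, BUB1, BUB3, CDCA8, KIF11, KIF4A, MKI67, NCAPG, NUSAP1, SPC25 and UBE2C). With the block and the GC content and length correction CDC20 was called (-0.29, limma-trend adjusted p = 0.0336). AURKA was at -0.0106 with median-ratio factors, -0.0222 with limma-voom, and -0.031 to 0.0731 when libraries were left out. CDCA8 was at 0.0265 with upper quartile factors and -0.0732 to 0.025 when libraries were left out. KIF11 was at -0.0103 with limma-voom, -0.0167 with the GC content and length correction, with or without the block, and -0.0339 to 0.0576 when libraries were left out (-0.0174 without both libraries that stood apart). MKI67 was at 0.015 with upper quartile factors and -0.0792 to 0.0427 when libraries were left out. The causes were not tested. With 3 libraries a group the members' median SE was 0.07, which limits the changes that can be seen.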

Other observations

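Of 34 DNA replication genes 9 fell and 4 rose, beside 13.4% and 12.0% of all genes tested. Their median log2 fold change was -0.05. MCM7, a subunit of the replicative helicase, fell from 119.5 ± 2.81 RPKM to 58.0 ± 5.81 RPKM (mean ± SD, limma-trend log2 fold change -1.04, adjusted p = 0.000558), and MCM3, of the same complex, fell from 130.01 ± 4.03 RPKM to 89.0 ± 6.04 RPKM (mean ± SD, limma-trend log2 fold change -0.54, adjusted p = 0.00224). UHRF1, which maintains DNA methylation at replication forks, fell from 32.1 ± 0.943 RPKM to 20.8 ± 1.19 RPKM (mean ± SD, limma-trend log2 fold change -0.60, adjusted p = 0.00139).

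Of 21 tested transcription factors of the cell cycle 8 rose and 4 fell, beside 12.0% and 13.4% of all genes tested. TFDP1, the dimer partner of the E2F factors, fell from 121 ± 4.67 RPKM to 76.5 ± 5.14 RPKM (mean ± SD, limma-trend log2 fold change -0.65, adjusted p = 0.0013). LIN54, the DNA-binding subunit of the MuvB core that recognises the CHR element, rose from 8.20 ± 0.701 RPKM to 15.8 ± 0.795 RPKM (mean ± SD, limma-trend log2 fold change 0.87, adjusted p = 0.00115), and LIN52, another MuvB subunit, rose from 6.69 ± 0.302 RPKM to 10.7 ± 0.696 RPKM (mean ± SD, limma-trend log2 fold change 0.61, adjusted p = 0.00339). No protein or binding was measured, and no relation between these genes and the mitosis genes was tested.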
